A study of Mus musculus with 3 samples.

Results

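The high mobility group (HMG) genes described here are Hmgb1, Hmgb2, Hmgb3, Hmgn1, Hmgn2 and Hmga1, 6 of the 27998 genes in the count tables. They were taken by gene symbol, and each symbol matched 1 row. The study profiled single cells of mouse bone marrow (strain C57BL/6J) along the path to the B lineage with the 10x Chromium 3' v2 chemistry, with 1 library for each of 3 sorted populations and no replicate. The gate for LMPP, multipotent progenitors primed for the lymphoid fates, took B220- IL7Ra- cells with cKit, Sca1 and Flt3. That for CLP, the common lymphoid progenitors, took B220- IL7Ra+ cells with cKit and Sca1, whether Flt3+ or Flt3-. The pro-B gate took B220+ IL7Ra+ cKit+ cells without Sca1 or Flt3, which are committed to the B lineage. About 3000 cells were loaded per library, and the labels do not say how many mice gave them. The cultured iLS cells that the labels also describe were not analysed here.

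HMG proteins are abundant chromatin proteins without enzyme activity that change how DNA and nucleosomes bend, open and pack. HMGB proteins bend DNA with their HMG boxes, and HMGB1 and HMGB2 help the RAG recombinase bind and cut its signal sequences during V(D)J recombination, the step that developing B cells carry out at the pro-B stage. HMGN proteins bind the nucleosome itself and compete with linker histone H1, and HMGA proteins hold AT-rich DNA with short AT hooks.

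In the GENCODE M21 annotation of mm10 all 6 are protein-coding genes. Hmgb1 lies at chr5:149046702-149184489 on the minus strand, Hmgb2 at chr8:57511907-57515999 on the plus strand and Hmgb3 at chrX:71555918-71560676 on the plus strand. Hmgn1 lies at chr16:96120618-96127729 and Hmgn2 at chr4:133964738-133968650, both on the minus strand, and Hmga1 at chr17:27556497-27563674 on the plus strand. HMG genes have many retrocopies: the last 300 bases of an Hmgb1 transcript matched 80 other annotated genes at 95% identity or more over 200 bases or more, against 13 for Hmgn2, 5 for Hmgb2, 4 for Hmgn1, and 1 each for Hmgb3 and Hmga1. None of the copies of Hmgb1, Hmgb2, Hmgb3 and Hmgn1 is a row of the count tables, while the Hmgn2 copies Gm10282 and Gm20379 are. Along LMPP, CLP and pro-B, Gm10282 held 192, 255 and 1274 transcript counts (UMIs, defined below). How reads that fit several copies were counted is not given in the sources used here, so the levels of these genes are uncertain to that extent.

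The stretches upstream of the transcription starts of the 3 HMGB genes and of Hmgn2 are shown because these 4 genes had the largest ratios between pro-B cells rich and poor in mitotic transcripts, and because Hmgn2 lacked both of the motifs marked in the others. They come from RefSeq on GRCm38.p6 and cover up to 250 bases before the start, without bases annotated as untranslated region. Capitals mark CCAAT boxes, which the factor NF-Y binds, and the cell cycle homology region (CHR) elements TTTGAA or TTCGAA, which the DREAM and MYB-MuvB complexes bind in promoters of G2/M genes, each on either strand.
Hmgb1, chr5:149053058-149053260, minus strand: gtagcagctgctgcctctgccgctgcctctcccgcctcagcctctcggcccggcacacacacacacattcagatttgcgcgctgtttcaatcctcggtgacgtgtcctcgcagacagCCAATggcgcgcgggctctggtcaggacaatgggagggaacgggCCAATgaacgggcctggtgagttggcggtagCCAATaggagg
Hmgb2, chr8:57511593-57511842, plus strand: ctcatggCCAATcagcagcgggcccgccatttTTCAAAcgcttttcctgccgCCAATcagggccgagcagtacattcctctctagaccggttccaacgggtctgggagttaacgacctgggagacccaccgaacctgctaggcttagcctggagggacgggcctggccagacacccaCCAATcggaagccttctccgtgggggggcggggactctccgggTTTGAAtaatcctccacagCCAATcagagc
Hmgb3, chrX:71555667-71555916, plus strand: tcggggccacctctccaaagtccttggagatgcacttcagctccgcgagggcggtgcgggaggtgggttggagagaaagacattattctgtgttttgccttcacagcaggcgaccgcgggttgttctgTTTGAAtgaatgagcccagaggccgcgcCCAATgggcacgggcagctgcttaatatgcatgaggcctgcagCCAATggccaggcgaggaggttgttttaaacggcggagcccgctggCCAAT
Hmgn2, chr4:133968002-133968241, minus strand: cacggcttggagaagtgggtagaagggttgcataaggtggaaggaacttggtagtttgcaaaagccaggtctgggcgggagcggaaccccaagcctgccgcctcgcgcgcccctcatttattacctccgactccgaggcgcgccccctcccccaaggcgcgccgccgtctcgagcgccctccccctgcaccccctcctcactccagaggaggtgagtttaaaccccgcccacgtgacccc

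The 3 HMGB windows each held 3 or more CCAAT boxes. Hmgb2 held 4, and Hmgb1, at the first of its 2 annotated starts, and Hmgb3 held 3 each. Of 32817 windows of the same length before annotated starts, 33.8% held at least 1 CCAAT, 2.79% at least 3 and 0.835% at least 4. Hmgb2 also held 2 CHR elements and Hmgb3 held 1, while 17.1% of all windows held at least 1 and 1.98% at least 2. At least 2 CCAAT boxes together with at least 1 CHR element, as in Hmgb2 and Hmgb3, were found in 1.71% of windows. The window of Hmgn1 held 2 CCAAT and no CHR, and those of Hmgn2, of Hmga1 (2 starts) and of the second Hmgb1 start held neither. None of the 6 genes held the E2F forms TTTCCCGC, TTTGGCGC, TTTGCCGC or TTTCGCGC, which 1.86% of all windows held. GC boxes (GGGCGG, on either strand), found in 32.7% of windows, were present for every gene, though for Hmgb1 only at the second start. No CCAAT overlapped a CHR. These matches describe the letters of the windows and do not show a bound site.

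The libraries kept 579 LMPP, 948 CLP and 1106 pro-B cells and 4014657, 5967352 and 7367156 unique molecular identifiers (UMIs, each 1 captured transcript). Levels are given as counts per 1000000 UMIs of the library (CPM), where 3 UMIs correspond to 0.747 CPM for LMPP, 0.503 for CLP and 0.407 for pro-B. Intervals are exact 95% Poisson intervals, or exact conditional intervals for ratios, and cover counting error only. With 1 library per population a ratio has no replicate check, no test was run, and the population cannot be told apart from the droplet run. The labels fitted their markers: along LMPP, CLP and pro-B the 8 pro-B markers summed to 46.3, 765 and 12891 CPM, with Pax5 at 0 in LMPP, and the 6 LMPP markers summed to 1666, 577 and 9.50 CPM. The CLP library also held transcripts of some dendritic and innate lymphoid markers. The 7 dendritic markers summed to 307, 801 and 76.6 CPM and the 8 innate lymphoid markers to 187, 267 and 9.77 CPM. In CLP, Cox6a2 alone had 476 CPM and Nkg7 191 CPM, so the sums rest on few genes. Siglech had 49.9 CPM there, while Gzma, Gzmb, Cd3e and Il2rb had 0.17, 0.34, 0.17 and 1.34. Klk1 and Cd209d were at 0 in all 3 libraries, and Bst2 and Nkg7 had 177 and 142 CPM in LMPP too. After thinning, 32, 218 and 4 cells carried 3 or more UMIs of either list, which does not by itself name a cell type. Ribosomal protein genes took 43.5% of LMPP, 41.9% of CLP and 29.6% of pro-B UMIs, so a total without ribosomal and mitochondrial genes lowers every ratio of pro-B over CLP by 0.31 on the log2 scale, and scaling by the median of ratios lowers it by 0.29. Libraries shared at most 3 cell barcodes.

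HMG transcripts made up 0.233% of LMPP, 0.269% of CLP and 1.03% of pro-B UMIs. In pro-B over CLP, 4 of the 6 genes were higher by 2-fold or more and none was lower by that much, where 20.8% of the 3002 genes that reached 50 CPM in either library were higher and 9.86% lower by 2-fold or more. The median log2 ratio of the 6 was 1.64, and that of the 3002 genes 0.34. Between CLP and LMPP none of the 6 reached 2-fold, where 4.71% of 2570 genes were higher and 2.72% lower in CLP by that much, and the median log2 ratio of the 6 was 0.31. Pro-B over LMPP gave 5 of 6 higher and none lower by 2-fold or more, where 21.5% of genes were higher and 10.1% lower. The 3 comparisons share libraries.

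Among the HMGB genes, Hmgb2, whose transcript is known to be high in dividing cells, had 395 CPM in LMPP, 495 CPM in CLP and 3575 CPM in pro-B. Pro-B over CLP was 7.22-fold (log2 ratio 2.85, 2.80 to 2.91), and CLP over LMPP 1.25-fold (log2 0.33, 0.24 to 0.41). Hmgb1, the broadly expressed member, had 847, 1099.8 and 4015 CPM in the same order, a log2 ratio of 1.87 (1.83 to 1.91) in pro-B over CLP and of 0.38 (0.32 to 0.44) in CLP over LMPP. Both were thus somewhat higher in CLP than in LMPP and several times higher again in pro-B. Hmgb3, known from mice for its part in haematopoietic progenitors, had 101, 89.2 and 242 CPM. Its log2 ratio was 1.44 (1.30 to 1.58) in pro-B over CLP and −0.18 in CLP over LMPP, where the interval (−0.37 to 0.012) held 0.

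Of the nucleosome-binding pair, Hmgn2 had 581 CPM in LMPP, 499 CPM in CLP and 1778 CPM in pro-B. Pro-B over CLP was 3.56-fold (log2 1.83, 1.78 to 1.89), and lower in CLP than in LMPP (log2 −0.22, −0.30 to −0.14). Hmgn1 had 295, 368 and 405 CPM, and pro-B over CLP was only 1.10-fold (log2 0.14, 0.058 to 0.22). That direction turned with the scaling: the log2 ratio was −0.17 without ribosomal and mitochondrial genes in the total, −0.15 by the median of ratios and −0.093 when every cell weighed the same. Hmga1, the AT-hook member, had 112, 139 and 249 CPM, and pro-B over CLP was 1.79-fold (log2 0.84, 0.72 to 0.96). Hmgn1 was the single member whose level in pro-B did not stand clear of that in CLP under every scaling.

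**Figure D1:**
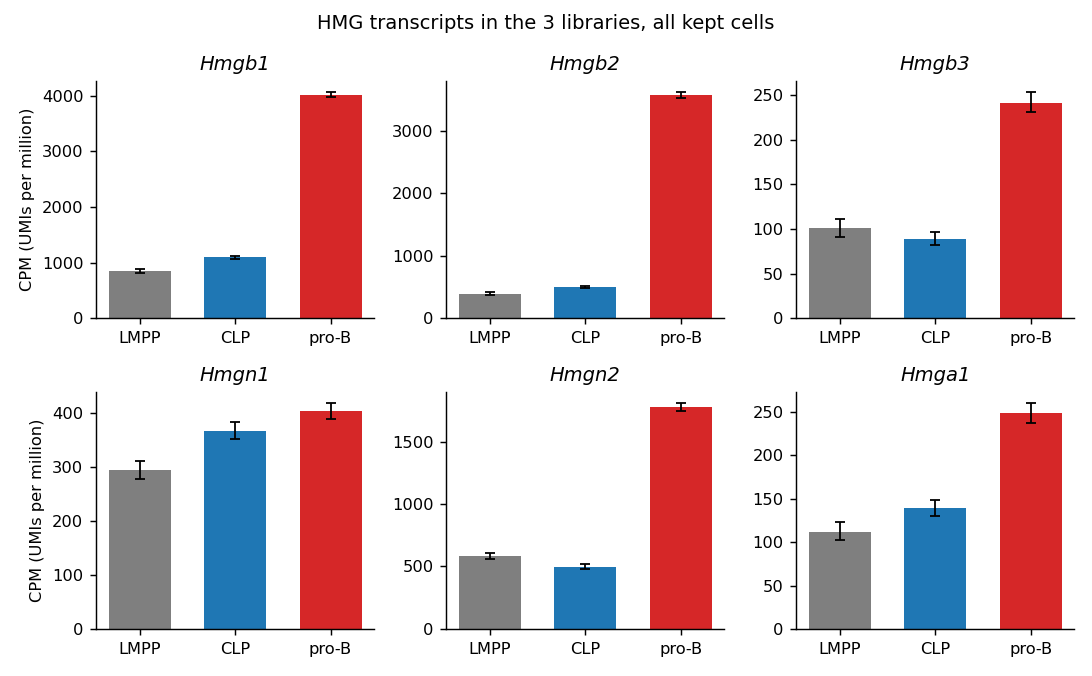
Level of each HMG gene in CPM (linear axis from 0, own scale per gene) in the LMPP, CLP and pro-B libraries, with exact 95% Poisson intervals as error bars, which cover counting error only. Hmgb1, Hmgb2 and Hmgn2 stand at 4015, 3575 and 1778 CPM in pro-B, while Hmgn1 stands at 295 CPM in LMPP, 368 CPM in CLP and 405 CPM in pro-B.

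Cells were compared at equal depth by drawing 2000 UMIs from each cell, which left 573 LMPP, 908 CLP and 1070 pro-B cells. A thinned pro-B cell held a median of 6 Hmgb1 UMIs with quartiles of 2 and 10, while CLP cells had a median of 2 and LMPP cells of 1. For Hmgb2 the median was 5 in pro-B, with quartiles of 2 and 9 and a highest cell of 33, and 0 in CLP and in LMPP. The median of Hmgn2 was 3 in pro-B and 1 in each progenitor library. Hmgb3, Hmgn1 and Hmga1 had a median of 0 in all 3 libraries, so their means per thinned cell, at most 0.694, rest on few UMIs per cell. Pro-B cells differed widely from each other: the variance over the mean was 4.77 for Hmgb2, 3.55 for Hmgb1 and 2.61 for Hmgn2. Genes within 2-fold of the same mean had medians of 1.45, 1.45 and 1.29. None of the 109 such genes exceeded Hmgb2, 2 of 104 exceeded Hmgb1 and 5 of 124 exceeded Hmgn2. In CLP the ratio was 2.21 for Hmgb2 and 1.58 for Hmgb1, and in LMPP 2.14 and 1.15. Hmga1 stayed between 1.02 and 1.08 in the 3 libraries, close to the value of 1 that counting alone gives.

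**Figure D2:**
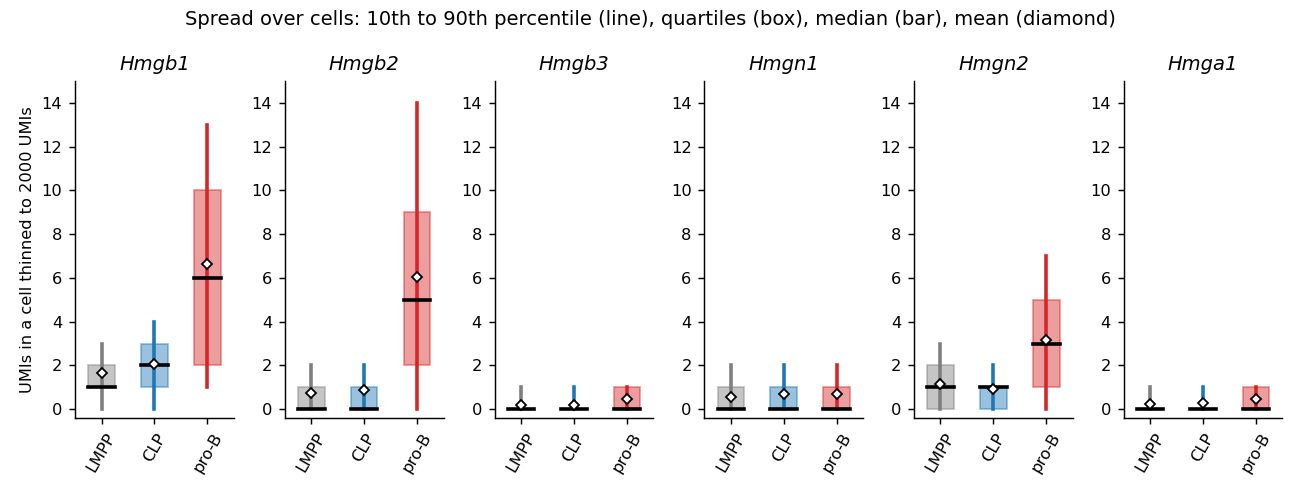
UMIs of each HMG gene per cell after thinning every cell to 2000 UMIs, in 573 LMPP, 908 CLP and 1070 pro-B cells, where lines span the 10th to the 90th percentile, boxes the quartiles, bars mark medians and diamonds means. The boxes of Hmgb1 and Hmgb2 in pro-B span 2 to 10 and 2 to 9 UMIs.

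Cells were classed by cycle transcripts after thinning. Mitotic-rich cells had 3 or more UMIs of 20 G2/M genes, S-rich cells had 3 or more of 20 S phase genes and fewer than 3 of the G2/M genes, and cycle-low cells had fewer than 3 of each. No HMG gene is in either list. Pro-B held 310 cycle-low, 184 S-rich and 576 mitotic-rich cells. CLP held 591, 259 and 58 and LMPP 412, 138 and 23 in the same order. The mitotic-rich share was 53.8% of thinned pro-B cells, 6.39% of CLP and 4.01% of LMPP cells. The classes are ranges along a count and not cell types, and 237 pro-B cells had 2 or 3 G2/M UMIs, next to the cut. Within pro-B, Ube2c, a mitotic gene of the list, had 73.5, 72.6 and 854 CPM in cycle-low, S-rich and mitotic-rich cells, and the replication gene Mcm5 had 18.4, 230.3 and 152. Depth moved with the class: pro-B cells had medians of 3130.5, 5920.5 and 8344 UMIs in cycle-low, S-rich and mitotic-rich cells.

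Within pro-B, all 6 HMG genes were higher in mitotic-rich than in cycle-low cells, 5 of them by 2-fold or more, where 12.5% of 3099 genes were higher and 12.6% lower by that much. The median log2 ratio of the 6 was 1.74, and that of the 3099 genes −0.065. Hmgb2 had 759, 2398 and 4466 CPM in cycle-low, S-rich and mitotic-rich pro-B cells, and mitotic-rich over cycle-low was 5.88-fold (log2 2.56, 2.45 to 2.66). Hmgb1 had 1195, 3347 and 4785 CPM (4.01-fold, log2 interval 1.92 to 2.09). Hmgn2 had 512, 1541 and 2113 CPM (log2 2.05, 1.92 to 2.17). Each of these 3 genes was already several times higher in S-rich cells and higher again in mitotic-rich ones. Hmgb3 had 103, 187 and 285 CPM (log2 1.47, 1.19 to 1.77).

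Hmgn1 and Hmga1 had other patterns. Hmgn1 had 172, 483 and 437 CPM in cycle-low, S-rich and mitotic-rich pro-B cells, so that mitotic-rich over cycle-low was 2.54-fold while mitotic-rich over S-rich was below 1 (log2 −0.14, −0.28 to −0.010). The first of these Hmgn1 ratios, 1.34 on the log2 scale, lay between 0.44 and 2.74 over the alternatives, the lowest with only the even-numbered genes of each cycle list. Hmga1 had 196, 264 and 256 CPM, a log2 ratio of 0.38 (0.17 to 0.60) in mitotic-rich over cycle-low cells. That of Hmga1 was 0.021 among cells of 2000 to 6000 UMIs, while those of Hmgb1, Hmgb2, Hmgb3, Hmgn1 and Hmgn2 were 2.05, 2.64, 1.39, 1.20 and 2.35 among the same cells. S-rich over cycle-low gave 4 of 6 higher by 2-fold or more, where 9.1% of 3043 genes were, with a median log2 ratio of 1.49 that came to 0.83 among cells of 2000 to 6000 UMIs. Counted as UMIs per cell with no scaling, the median log2 ratio of mitotic-rich over cycle-low cells was 3.14.

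Outside pro-B the levels also followed the order cycle-low, S-rich, mitotic-rich, apart from Hmga1 in LMPP. In CLP, Hmgb2 had 251, 530 and 2217 CPM in cycle-low, S-rich and mitotic-rich cells, and in LMPP 268, 409 and 2055. Mitotic-rich over cycle-low was 8.82-fold in CLP (log2 3.14, 3.01 to 3.27) and 7.68-fold in LMPP (log2 2.94, 2.76 to 3.12). In both libraries 4 of 6 members were higher by 2-fold or more in mitotic-rich cells, where 9.69% of genes were in CLP and 6.98% in LMPP. Hmgb1 differed from Hmgb2 in S-rich cells: S-rich over cycle-low was 1.29-fold for Hmgb1 and 2.11-fold for Hmgb2 in CLP, and 2.80-fold and 3.16-fold in pro-B. Of the 58 mitotic-rich CLP cells, 26 carried dendritic or innate lymphoid markers. Hmgn1 had 856 CPM in those 26 cells and 504 in the other 32, and Hmgb2 had 2468 and 2019 CPM. The part of the marked cells in these levels was not tested.

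**Figure D3:**
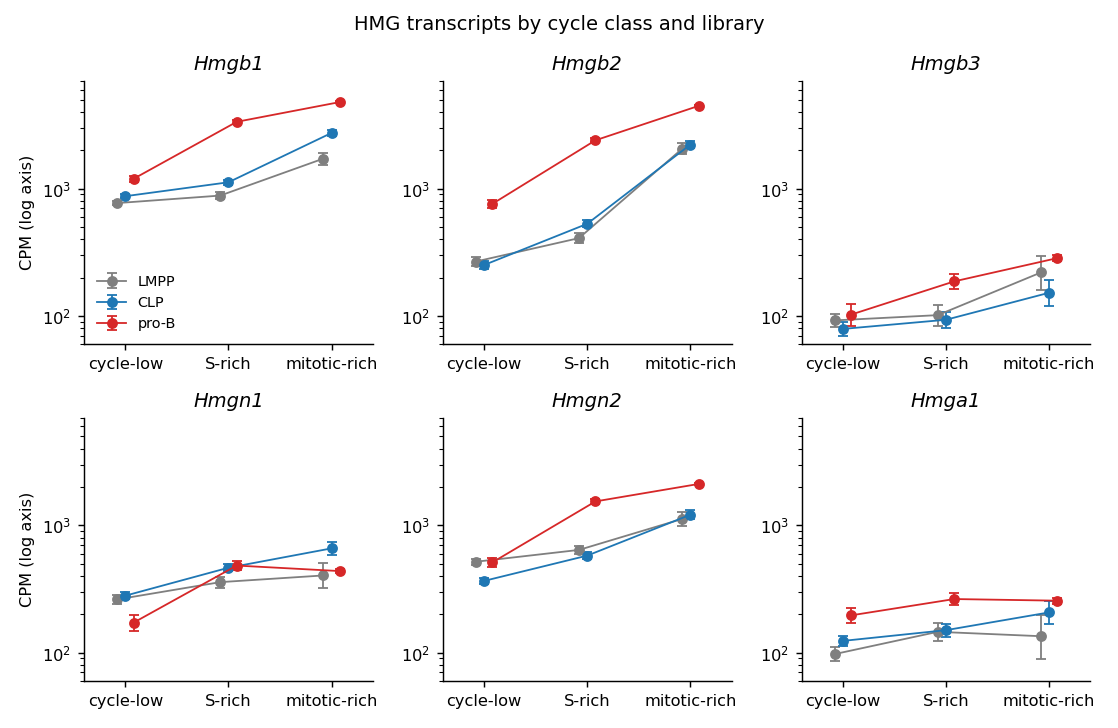
Level of each HMG gene in CPM (log axis) in cycle-low, S-rich and mitotic-rich cells of the LMPP, CLP and pro-B libraries, with exact 95% Poisson intervals. Mitotic-rich cells reach 2055 CPM of Hmgb2 in LMPP, 2217 CPM in CLP and 4466 CPM in pro-B, and Hmgn1 in cycle-low pro-B cells, at 172 CPM, lies below the cycle-low cells of both progenitor libraries.

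Finer bins of the G2/M count separated the members further. Over 6 bins of pro-B cells, with 0, 1 to 2, 3 to 5, 6 to 10, 11 to 20 and 21 or more G2/M UMIs per thinned cell (122 to 326 cells each), the mean of Hmgb2 was 1.81, 2.82, 4.88, 8.63, 10.8 and 13.4 UMIs per thinned cell. Hmgb1 was at 2.71 UMIs in the lowest bin and at 11.1 in each of the top 2 bins, so that it levelled off where Hmgb2 did not. Hmgn2 went up in every bin, with 1.12 UMIs in the lowest and 5.87 in the highest. Hmgn1 had its highest mean, 0.984 UMIs (0.816 to 1.18), at 6 to 10 G2/M UMIs and 0.427 (0.320 to 0.559) at 21 or more, next to 0.387 (0.299 to 0.493) at 0. Median depth differed by less among the top 4 bins, 7913 to 8801 UMIs, than between them and the lowest bin, at 3152.

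A split of the 576 mitotic-rich pro-B cells by S phase transcripts again set Hmgb2 and Hmgn1 apart. The 132 cells with fewer than 3 S phase UMIs had 5226 CPM of Hmgb2, against 4295 in the 444 cells with 3 or more. Hmgn1 ran the other way, with 285 CPM in the 132 cells and 471 in the 444 cells. Hmga1 had 205 and 267 CPM, and Hmgb1 4608 and 4825. The intervals of Hmgb1 did not overlap either, but its difference was small. In CLP the same split gave 384 CPM of Hmgn1 in 23 cells with fewer than 3 S phase UMIs and 828 in 35 cells with 3 or more, while Hmgb2 had 2281 and 2178 with overlapping intervals. In LMPP, with 17 and 6 such cells, Hmgn1 had 402 and 407 CPM.

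**Figure D4:**
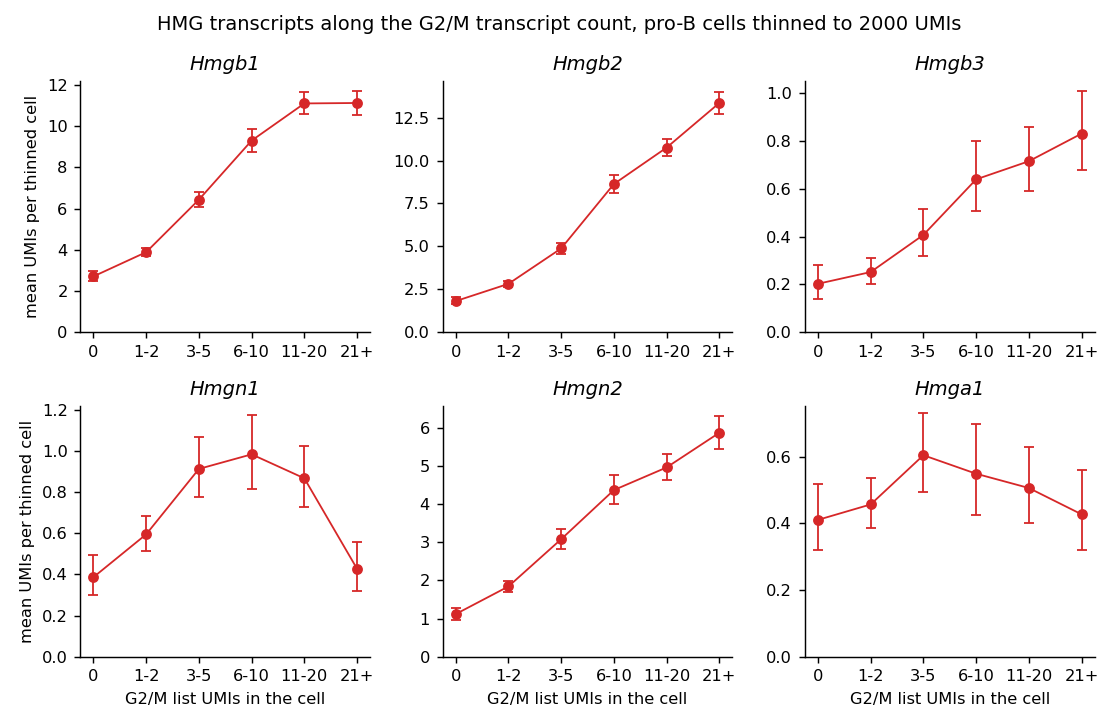
Mean UMIs of each HMG gene per pro-B cell thinned to 2000 UMIs (own linear scale from 0 per gene) against the number of G2/M list UMIs in the cell, with exact 95% Poisson intervals of the mean. Hmgb2 is at 1.81 UMIs in the lowest bin and 13.4 in the highest, and Hmgn1 has its highest mean, 0.984, at 6 to 10 G2/M UMIs.

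Cell-to-cell correlations in pro-B are a description, since all 1070 cells come from 1 library and differ in their cycle transcripts. Pearson's r with the summed G2/M list was 0.72 for Hmgb2, 0.59 for Hmgb1, 0.53 for Hmgn2 and −0.012 for Hmgn1, whose r with the S phase list was 0.28. Hmgb1 and Hmgb2 had r = 0.65 over all pro-B cells, 0.56 among S-rich and 0.42 among mitotic-rich cells. Among the 310 cycle-low cells, with means of 2.31 and 1.48 UMIs per thinned cell, r was 0.083. The part of such low counts in that value was not tested. Hmgb1 and Hmgn2 had 0.64 over all, 0.39 among cycle-low, 0.46 among S-rich and 0.48 among mitotic-rich cells.

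Because the class makeup differed so much, pro-B was also set against CLP within each class. Among cycle-low cells, Hmgb2 was the single member higher by 2-fold or more, where 21.1% of 3050 genes were higher and 9.18% lower by that much. It had 759 CPM in pro-B and 251 CPM in CLP, 3.02-fold (log2 1.59, 1.45 to 1.73), and its log2 ratio lay between 1.26 and 2.03 over the alternatives. Among cells with no UMI of either cycle list, 39 of pro-B and 193 of CLP, it was 1.59. The median log2 ratio of the 6 was 0.47 in cycle-low cells and that of the 3050 genes 0.39, so as a set the members stood near all genes there. That median ranged from 0.13, without ribosomal and mitochondrial genes in the total, to 0.92, with only the odd-numbered genes of the cycle lists.

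The remaining members differed less or went the other way. Hmgb1 had 1195 CPM in cycle-low pro-B cells and 872 in cycle-low CLP cells (log2 0.45, 0.36 to 0.55), and Hmgn2 had 512 and 366 CPM (log2 0.48, 0.33 to 0.63). Hmga1 had 196 and 124 CPM (log2 0.67, 0.42 to 0.91), and Hmgb3 had 103 and 79.1 CPM (log2 0.37, 0.038 to 0.70). Hmgb3 came to −0.39 in the cells with no cycle UMI. Hmgn1 was lower in cycle-low pro-B cells, with 172 CPM against 280.2 CPM in CLP (log2 −0.70, −0.94 to −0.47). Its log2 ratio stayed below 0 in every alternative run and ranged from −1.04, without ribosomal and mitochondrial genes in the total, to −0.080, with only the even-numbered genes of the cycle lists. Cycle-low pro-B cells held a median of 1 G2/M list UMI after thinning and 3130.5 UMIs before it, while cycle-low CLP cells held 0 and 6099. The part of depth, of the remaining cycle transcripts or of free RNA in these ratios was not tested.

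In S-rich cells, pro-B over CLP gave 4 of 6 members higher by 2-fold or more, where 15.6% of genes were, with log2 ratios of 2.18 for Hmgb2, 1.58 for Hmgb1 and 1.41 for Hmgn2, while Hmgb3 lay at the 2-fold line with 187 CPM in pro-B and 93.4 CPM in CLP. Hmga1 had 0.81 and Hmgn1 0.057 (−0.098 to 0.21). In mitotic-rich cells 1 of 6 reached 2-fold, where 11.4% of genes did: Hmgb2 had 4466 CPM in pro-B and 2217 CPM in CLP (log2 1.01, 0.92 to 1.10). Hmgb1, Hmgb3 and Hmgn2 had log2 ratios of 0.80, 0.90 and 0.80 there, and Hmga1 of 0.31. Hmgn1 was again lower in pro-B, with 437 CPM against 659 CPM in CLP (log2 −0.59, −0.76 to −0.42). Its log2 ratio was −0.20 when cells with dendritic or innate lymphoid markers were left out. The mitotic-rich CLP class held 58 cells in all, with a median of 5 G2/M list UMIs after thinning, against 10 in mitotic-rich pro-B cells.

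Weighting the CLP classes by the UMI shares of the pro-B classes gave the CLP level at the class makeup of pro-B. On that footing pro-B over CLP was 2.17-fold for Hmgb2 (3601 CPM in pro-B and 1662 CPM in CLP), 1.84-fold for Hmgb3, 1.83-fold for Hmgb1, 1.81-fold for Hmgn2 and 1.34-fold for Hmga1. Hmgn1 turned to a log2 ratio of −0.49. The median log2 ratio of the 6 was 0.87 on that footing and 1.64 over all cells, and Hmgb2 alone, 1 of 6 in place of 4 of 6, reached 2-fold, where 11.8% of 3016 genes were higher and 8.79% lower by that much. The median log2 ratio of the 3016 genes on the same footing was 0.19. Equal class makeup did not make the cells equal in cycle transcripts. Mitotic-rich cells, with 69.4% of the weight, held a median of 10 G2/M list UMIs in pro-B and 5 in CLP. At 3 to 5 G2/M UMIs the mean of Hmgb2 was 4.88 UMIs per thinned cell in pro-B and 3.52 in CLP. The CLP level of that class rests on 58 cells, 26 of them with dendritic or innate lymphoid markers. The part of these differences was not tested.

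**Figure D5:**
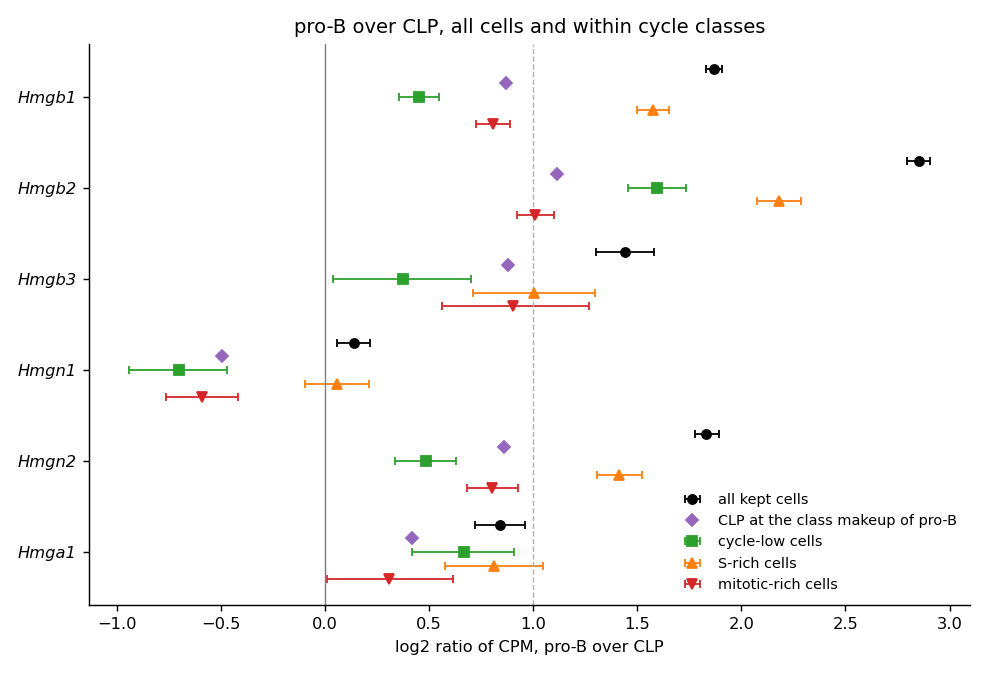
Log2 ratio of pro-B over CLP for each HMG gene over all kept cells, with CLP weighted to the class makeup of pro-B, and within cycle-low, S-rich and mitotic-rich cells, with exact conditional 95% intervals as bars, a solid line at 0 and a dashed line at 2-fold. Over all cells the ratios of Hmgb1, Hmgb2, Hmgb3 and Hmgn2 lie between 1.44 and 2.85, and within cycle-low cells the ratio of Hmgb2, at 1.59, is the one past 2-fold.

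Between CLP and LMPP the members differed little in cycle-low cells, and in mitotic-rich ones the intervals of Hmgb1 and Hmgn1 alone lay clear of 0. In cycle-low cells the median log2 ratio of CLP over LMPP was 0.0037 and that of 2579 genes −0.039, and no member reached 2-fold, where 5% of genes were higher and 3.02% lower in CLP by that much. Hmgn2 had the largest difference, with 366 CPM in CLP and 518 CPM in LMPP (log2 −0.50, −0.61 to −0.39), and Hmgb2 had 251 and 268 CPM (log2 −0.091, −0.23 to 0.052). In mitotic-rich cells, 58 of CLP and 23 of LMPP, Hmgb1 had 2739 CPM in CLP and 1721 CPM in LMPP (log2 0.67, 0.50 to 0.85). Hmgn1 had 659 and 404 CPM there (log2 0.71, 0.35 to 1.08), though the 32 CLP cells without dendritic or innate lymphoid markers had 504 CPM. The other intervals held 0: Hmgb2 had 0.11 (−0.056 to 0.28) and Hmgn2 0.11 (−0.12 to 0.34). Hmgb3 had −0.53 (−1.09 to 0.047) and Hmga1 0.62 (−0.0059 to 1.29). The median log2 ratio of the 6 was 0.37, and that of 2915 genes 0.11.

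Hmgb2 differed between subsets of the progenitors, and so did their mitotic-rich shares. The 218 CLP cells with dendritic or innate lymphoid markers had the highest level of the CLP subsets compared, 740.3 CPM of Hmgb2, and 11.9% of them were mitotic-rich. A separate split used B lineage genes, and those cells also enter it. CLP cells with Ly6d but no Ebf1 UMI had 657 CPM of Hmgb2, and 10.8% were mitotic-rich. Cells with neither had 389.5 CPM (3.64% mitotic-rich), and cells with Ebf1 but no Pax5 had 429 CPM (5.56% mitotic-rich). The 79 cells with Pax5 had 553 CPM, with 4.11% mitotic-rich and 32.9% S-rich. Level and mitotic-rich share thus did not rank the subsets alike. Median depth was 6999, 4915, 6346 and 6162 UMIs in these subsets as listed. Any UMI of a gene decided the subset, so depth enters here. Among the cycle-low cells of those subsets Hmgb2 was at 257, 256, 252 and 213 CPM, with overlapping intervals. The 453 LMPP cells with any UMI of Prtn3 or Mpo, genes of the myeloid branch, had 414 CPM of Hmgb2 and the 126 without had 311, while Hmgb1 was at 846 and 851 CPM. Median depth was 7194 UMIs in the 453 cells and 5716.5 in the 126, and 4.46% and 2.4% were mitotic-rich. A single UMI placed a cell in the first group, so depth enters this split. The 57 LMPP cells with 3 or more Dntt UMIs had 157 CPM of Hmga1, and the 516 with fewer had 107, with intervals that did not overlap. Hmgn2 went the other way, with 448 CPM in the 57 cells and 597 in the 516, also without overlap. The intervals of Hmgb1, Hmgb2, Hmgb3 and Hmgn1 overlapped. S-rich cells made up 15.8% of the 57 and 25% of the 516.

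A subset of cycle-low pro-B cells was high in Hmgn2. The variance over the mean of Hmgn2 among the 310 cells was 2.80, with a median of 0 UMIs and a highest cell of 14, while Hmgb2 had 1.20. The 27 cells with 3 or more Hmgn2 UMIs had a mean of 4.81 Hmgb1 UMIs, against 2.10 in the 163 cells with none, and 2.59 against 1.34 Hmgb2 UMIs. The 120 cells with 1 or 2 Hmgn2 UMIs had 2.04 Hmgb1 and 1.425 Hmgb2 UMIs. Median Hmgb1 was 3 UMIs in the 27 cells, with a highest cell of 16, and 2 in the 163. Surrogate light chain transcripts were lower in the 27 cells, with 7.56 Igll1 UMIs per cell against 12.0 in the 163. Rag1 had 0.148 against 0.448 UMIs and Rag2 0.111 against 0.393, with overlapping intervals. Median depth was 3904 UMIs in the 27 and 2955 in the 163 cells.

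In CPM, the partners of HMGB1 and HMGB2 in V(D)J recombination ran opposite to them over the 3 cycle classes of pro-B. Rag1 had 211 CPM in cycle-low, 68.4 in S-rich and 43.2 in mitotic-rich pro-B cells, and Rag2 had 183, 61.8 and 59.6. Both were thus lower by 2-fold or more in mitotic-rich than in cycle-low cells, where 12.6% of 3099 genes were. CPM are shares, and median depth was 3130.5 UMIs in cycle-low and 8344 in mitotic-rich cells. As raw UMIs, Rag1 had 218 in 310 cycle-low, 82 in 184 S-rich and 219 in 576 mitotic-rich cells. Rag2 had 189, 74 and 302 UMIs in the same cells. Pro-B over CLP among cycle-low cells was 3.14-fold for Rag1 and 4.56-fold for Rag2, where 21.1% of genes were higher by 2-fold or more. Of the 3 pro-B classes, cycle-low cells thus held the highest Rag1 and Rag2 levels and the lowest Hmgb1 and Hmgb2 levels in CPM.

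Among other HMG genes, 2 of 5 had 50 CPM or more, and both passed 2-fold in pro-B over CLP, where 20.8% of all genes were higher by that much. Hmgn3 had 159 CPM in pro-B and 35.5 in CLP (log2 2.17, 1.95 to 2.38), and Hmgn5 had 146 and 48.9 (log2 1.58, 1.39 to 1.77). Both reached 50 CPM in pro-B but not in CLP, so the filter admitted them by their pro-B level. Hmgn3 differed little between mitotic-rich and cycle-low pro-B cells (154 and 176 CPM, log2 −0.20, −0.43 to 0.044). In cycle-low cells Hmgn3 had 176 CPM in pro-B and 29.5 in CLP. Hmga2, an AT-hook gene of fetal and early progenitors, had 31.1 CPM in LMPP and 46.4 in CLP but only 3 UMIs in pro-B (log2 of pro-B over CLP −6.83, −9.12 to −5.27). Hmgb4 had no UMI in any library. Of 12 chromatin genes with an HMG box outside the family, 7 had 50 CPM or more, and none of them differed by 2-fold or more between pro-B and CLP. Ssrp1, a subunit of the FACT histone chaperone, had 251 CPM in pro-B and 143 in CLP (log2 0.81, 0.69 to 0.93).

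Linker histones, with which HMGN proteins compete, had 5 of 7 genes at 50 CPM or more, 2 of which were higher by 2-fold or more in pro-B over CLP, where 20.8% of all genes were. Those 2, Hist1h1b and H1f0, reached 50 CPM in pro-B but not in CLP, so the filter admitted them by their pro-B level. Hist1h1b had 109.9 CPM in pro-B and 16.8 in CLP, and 145 CPM in mitotic-rich and 19.3 CPM in cycle-low pro-B cells. H1f0, the replication-independent linker histone, had 179 CPM in pro-B and 45.2 in CLP (log2 1.99, 1.80 to 2.18), and within pro-B it was lower in mitotic-rich than in cycle-low cells (174 and 252 CPM). Of the SET complex, which HMGB2 can join, 2 of 5 genes at 50 CPM or more were higher by 2-fold or more in pro-B over CLP, against the same 20.8%: Anp32a with 449 CPM in pro-B and 158 in CLP, and Anp32b with 862 and 430.0. Nme1 had 432 CPM in pro-B and 230 in CLP (1.88-fold), and Set had 423 and 389. In mitotic-rich over cycle-low pro-B cells 4 of those 5 were higher by 2-fold or more, where 12.5% of all genes were. Among cycle-low cells Anp32a was higher by 2-fold or more in pro-B than CLP and Set and Apex1 lower by that much, where 21.1% of all genes were higher and 9.18% lower, and Anp32b had 260.2 CPM in pro-B and 359.9 CPM in CLP (log2 −0.47, −0.66 to −0.28). Of 12 histone chaperone genes 7 were higher by 2-fold or more in pro-B over CLP, again against 20.8% of all genes, among them Ptma (10062 and 3607 CPM) and Asf1b (252 and 12.9 CPM). Of these 7, Asf1b, Chaf1a, Chaf1b and Hat1 likewise reached 50 CPM in pro-B but not in CLP. In cycle-low cells a partly different set of 7 chaperone genes reached 50 CPM, with Ptma and Asf1a in both sets, and none of these 7 was higher by 2-fold or more. Asf1b, below 50 CPM there, had 28.0 CPM in cycle-low pro-B cells and 1.68 CPM in cycle-low CLP cells (log2 4.06, 2.77 to 5.62), from 29 and 6 UMIs. None of the 6 receptors for released HMGB1, among them Ager, Tlr2 and Tlr4, reached 50 CPM in any library. Cxcr4, the highest of them, came near it, with 47.1 CPM in CLP, 29.0 in pro-B and 23.4 in LMPP.

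Profiles over the 9 combinations of library and cycle class placed the members near different genes. Hmgb1, Hmgb2, Hmgb3 and Hmgn2 had pairwise Pearson's r of 0.89 to 0.96 in log2(CPM + 1), while Hmgn1 had 0.39 to 0.66 with the 5 others. Candidates were 2942 genes at 50 CPM or more in at least 1 library. Genes of the S phase and G2/M lists were left out beforehand. So were mitochondrial, ribosomal protein and immunoglobulin genes and unnamed gene models. Of these candidates, those closest to Hmgb1 were Fbxo5, Hspa14, Srsf3, Nsmce4a and the histone variant gene H2afv (r = 0.98 to 0.99). The closest to Hmgb2 were Exosc8, the kinetochore gene Nuf2, Itgb3bp, Thrap3 and again H2afv (0.98 to 0.99). Hmgn2 was closest to Hnrnpdl, Ppia, the histone variant gene H2afz, Eny2 and Lsm5 (0.97 to 0.99), and Hmgb3 to Lsm4, Rpp30, Pbdc1, Lsm5 and Hmgn5 (0.96 to 0.98). Hmgn1 was closest to Smchd1, Pole3, Hypk, P4hb and Fam111a (0.93 to 0.96), and Hmga1 to the Polycomb methyltransferase gene Ezh2, Mrpl49, Slmo2 and Ndufc1 (0.97 to 0.98). The 9 profiles come from 3 libraries, so these values describe likeness here and carry no test.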

How the data were processed

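The deposited values are raw UMI counts per gene and cell, in 1 10x matrix per library. The submitters' processing notes name Cell Ranger and the mouse build mm10. Its version, the gene annotation and the treatment of reads that fit several genes were not given in the sources used here. Cells with 500 genes or more and at most 10% mitochondrial UMIs were kept. Of the barcodes deposited (599 LMPP, 979 CLP, 1123 pro-B), 20, 31 and 16 were left out for mitochondrial UMIs and 1 pro-B cell for few genes. Median UMIs per cell were 6789, 6258.5 and 5687.5.

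UMIs were summed per library or cycle class and given as CPM with exact Poisson intervals. Ratios carry exact conditional intervals of a pair of Poisson counts. Both have a 95% level and cover counting error only, and the Poisson interval of a count of 0 ends at 3.69 UMIs. With 1 library per population no test across samples was possible and no p-value is given. Cycle classes were set on cells thinned to 2000 UMIs, leaving out 6 LMPP, 40 CLP and 36 pro-B cells, and class levels use the unthinned counts of those cells. Scrublet, run through scanpy with an expected doublet share of 1%, called 30 LMPP, 14 CLP and 2 pro-B cells, which were kept, and leaving them out was an alternative. A background is the share of genes past 2-fold among those at 50 CPM or more in the higher of the compared groups.

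The genes named are the 6 members and genes of 7 lists (up to 4 per list with the highest CPM, and any past 2-fold at 50 CPM or more). Per member they also include the 5 candidate genes with the highest Pearson correlation of log2(CPM + 1) over 9 profiles. Genes of the cycle lists were not candidates. A few genes that these rules name are not reported here. Hmgb4 lies outside that rule, and it and the progenitor and cycle-low subsets were chosen after their values were seen. The members and lists were chosen with earlier results of these data known. Promoter windows come from RefSeq on GRCm38.p6, positions from GENCODE M21. The steps were tested on simulated data. Calculations used pandas 2.3.3 and scanpy 1.11.5 under Python 3.11.15, with SciPy 1.17.1 for intervals, NumPy 2.4.6, and matplotlib 3.10.9 for figures.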

Additional observations from a re-analysis of the deposited data

How the results depend on the processing

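With 1 library per population the spread between animals or runs is unknown, and genes with few UMIs per cell (Hmgb3, Hmgn1, Hmga1) are the ones that depth limits most. Of 82 values for medians and counts of the members under alternatives, 45 stayed within their error, 37 moved and none reversed. Of 414 for single genes, 222 stayed, 180 moved and 12 reversed. Unless said otherwise the cause was not tested. The median log2 ratio of the 6 genes in pro-B over CLP, 1.64 over all cells, was 1.32 without mitochondrial and ribosomal genes in the total, 1.34 by the median of ratios, 1.51 with every cell weighing the same and 0.47 in cycle-low cells. It was 1.21 in S-rich cells, 0.80 in mitotic-rich cells, 0.82 in mitotic-rich cells without dendritic or innate lymphoid markers and 0.87 with CLP at the class makeup of pro-B. The last 4, the cells of 2000 to 6000 UMIs and the cells with no cycle UMI were chosen after seeing the data. The count of members at 2-fold or more, 4, was 1 in cycle-low cells, 1 in mitotic-rich cells, 1 there without marked cells and 1 at the same makeup. In pro-B over LMPP the median, 1.44, was 1.09 without mitochondrial and ribosomal genes, 1.15 by the median of ratios, 1.26 with equal weight, 0.39 in cycle-low, 1.07 in S-rich and 0.92 in mitotic-rich cells. In CLP over LMPP it was 0.31, and 0.0037 in cycle-low cells. Within pro-B the mitotic-rich over cycle-low median, 1.74, was 1.4999 at a threshold of 5 UMIs, 1.31 when thinned to 1000 UMIs, 1.25 with odd and 1.31 with even genes of the cycle lists, and 3.14 as UMIs per cell. The S-rich over cycle-low median, 1.49, was 1.11 at a threshold of 2 UMIs and 1.12 at 5, 0.92 when thinned to 1000 UMIs and 1.13 to 3000, 0.91 with odd and 0.88 with even genes, 2.45 as UMIs per cell and 0.83 in cells of 2000 to 6000 UMIs. A higher threshold, shallower thinning or shorter lists place cells with cycle transcripts among the cycle-low cells by construction, and UMIs per cell carry the difference in depth. The cycle-low median of pro-B over CLP, 0.47, was 0.75 at a threshold of 5 UMIs, 0.88 when thinned to 1000, 0.92 with odd and 0.90 with even genes, and 0.13 without mitochondrial and ribosomal genes. The reversals were as follows. Hmgn1 in pro-B over CLP, 0.14, was −0.17 without mitochondrial and ribosomal genes, −0.15 by the median of ratios, −0.093 with equal weight, −0.70 in cycle-low cells, −0.59 in mitotic-rich cells, −0.20 there without marked cells and −0.49 at the same makeup. In pro-B over LMPP, Hmgn1 was −0.60 and Hmgn2 −0.017 in cycle-low cells. In CLP over LMPP, Hmgb2 was −0.091 in cycle-low and Hmgn2 0.11 in mitotic-rich cells. In cycle-low pro-B over CLP, Hmgb3 was −0.39 in cells with no cycle UMI. No paired analysis was possible because each population is 1 library and the labels give no replicate numbers.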
